A study of Mus musculus with 6 samples.

Results

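The ATP-binding cassette (ABC) transporter superfamily was followed here in CD4+ effector T cells sorted by the activity of its best known member, Mdr1. Its members were taken by name, as every gene of subfamilies A to G in the deposited count table, and they came to 50 of 23366 genes. Of these, 27 had enough reads to be tested, 11 had a few reads, and 12 had none in any library. The cells of interest were Mdr1+, with a low signal of the dye Rh123, which Mdr1 pumps out, and they were compared with Mdr1- cells, in which the dye signal stayed high. Each fraction had 3 libraries. All 6 came from T cells that were recovered from mesenteric lymph nodes 6 weeks after transfer into Rag deficient hosts, animals without lymphocytes of their own, and the strain background is given as FVB/N. Mdr1+ and Mdr1- therefore name sorted fractions of transferred cells. The labels do not say how many hosts or pools stand behind a library, and the spread that a p-value measures is then that between these samples, which may be technical.

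ABC proteins bind and hydrolyse ATP with a conserved pair of nucleotide-binding domains, and most of them use that energy to move a substrate across a membrane. Mdr1, also called P-glycoprotein, exports a wide range of drugs, dyes and other hydrophobic compounds, and the study's title places it in T cells exposed to intestinal bile acids. In mice it is encoded by the neighbouring genes Abcb1a and Abcb1b. Other branches export sterols and phospholipids (A and G), conjugated and anionic compounds (C) or act in mitochondria and lysosomes (B), bring fatty acyl chains into peroxisomes (D), or carry no membrane-spanning part and work on ribosomes (E and F).

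The libraries held 6358978, 20771456 and 2220691 counts in genes in Mdr1+ cells of replicates 1, 2 and 3, and 9278109, 10530324 and 5862443 in Mdr1- cells. A count of 3 corresponded to between 0.14 and 1.41 CPM (the count rate of a gene within its library, with library sizes scaled by the trimmed mean of M-values, TMM), and this floor covers counting error only. The counts of replicate 3 had been deposited in another row order than the gene names and were put back in order before use. On the first principal component, with 59.2% of the variance, 1 library lay far from the rest, the shallow Mdr1+ library of replicate 3. The cells carried T cell transcripts in every library, with Cd4 at 1095 to 1114 CPM in Mdr1+ and 1023 to 1124 CPM in Mdr1- cells, and none of 9 tested T cell markers passed the test in either fit.

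In Mdr1+ cells Abcb1a, a gene of the transporter that the sort reads out, rose, and it was the 1 tested member of 27 that passed edgeR's quasi-likelihood test at an adjusted p under 0.05. None of the 27 fell. At an unadjusted p under 0.05 the counts were 4 higher and 2 lower, beside 4.63% and 7.22% of all tested genes, and DESeq2 called Abcb1a higher and Abcc3 lower. Over all 10897 tested genes edgeR called 0.275% higher and 1.95% lower, 2.22% in either direction, and DESeq2 called 4.04% of the genes it tested. With the replicate number as a block, a fit that compares libraries of the same number, 4 members rose (Abcb1a, Abcb1b, Abcf3 and Abcg1) and 3 fell, among them Abcb8 and Abcc3. The share of all tested genes called in that fit was 5.81% higher and 6.57% lower and 12.4% in either direction.

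The 3 Mdr1+ libraries lay above all 3 Mdr1- libraries for 5 members (Abca2, Abcb1a, Abcb9, Abcf3 and Abcg1) and below them for 3 (Abcb8, Abcb10 and Abcc3). Over all tested genes 8.71% lay above and 11.0% below, 19.7% in either direction. The median log2 fold change was 0.08 over the 27 members and 0.04 over all tested genes, and 23 of the 27 members (85.2%) differed by less than 2-fold in the fit without the block, beside 93.1% of all tested genes. In all, 9 members were higher in every pair of the same replicate number, 10 were lower in every pair and 8 went both ways, while 28.5% and 24.3% of all tested genes were higher or lower in every pair. All 50 members summed to 2473, 2487 and 2572 CPM in Mdr1+ libraries, against 2265, 2143 and 2295 CPM in Mdr1- libraries, or 0.219% to 0.256% of the counts of a library.

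**Figure D1:**
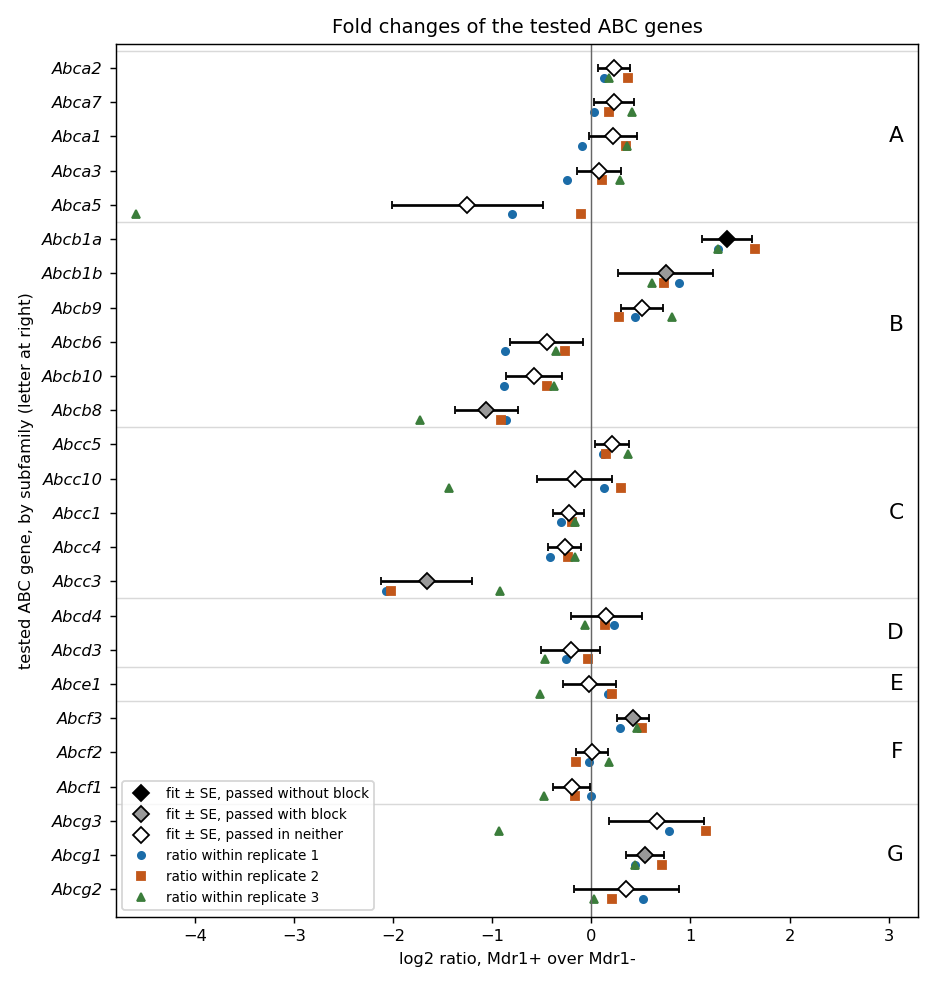
On the x axis, the log2 ratio of Mdr1+ over Mdr1- for 25 of the 27 tested ABC genes (y axis), grouped by subfamily A to G. Diamonds are the fitted log2 fold change without a block with its standard error, filled black where it passed, grey where only the fit with the replicate block passed and white where neither did, and small symbols are the ratios within each replicate number. Among the diamonds, Abcb1a lies farthest right at 1.37 and Abcc3 farthest left at -1.66, and the 3 Abcg genes, Abcb1b and Abcb9 lie right of 0.

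Abcb1a, the Mdr1 gene of the mouse gut and blood-brain barrier, was at 177, 132 and 178 CPM in the Mdr1+ libraries of replicates 1, 2 and 3, against 72.9, 42.0 and 73.4 CPM in the Mdr1- libraries. Every Mdr1+ library was above every Mdr1- library, and replicate 2 was the lowest of both groups. The ratios within replicate numbers were 2.43, 3.14 and 2.43, and the log2 fold change was 1.37 ± 0.25 (standard error; adjusted p = 0.0237 in edgeR's quasi-likelihood test). It was 1.41 ± 0.11 with the block (adjusted p = 0.000226). The CPM values gave p = 0.1 in an exact permutation test (two-sided), which is as small as 3 libraries against 3 can give. In bulk RNA, a larger share of cells that express the gene and more transcript per cell cannot be told apart.

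Without the block, the call of Abcb1a was lost in 5 of 9 fits that left out a library or a replicate number. Its adjusted p was 0.0533 without the Mdr1+ library of replicate 1, 0.0662 without that of replicate 3, 0.088 without the Mdr1- library of replicate 3, 0.106 without replicate 1 and 0.253 without replicate 3, with log2 fold changes of 1.26 to 1.5 in these 5 fits. With the block it passed without each replicate number in turn. Its edgeR adjusted p was then 9.85e-08, 1.09e-07 and 0.000347 without replicates 1, 2 and 3, beside 0.000226 with all libraries. Few libraries remain in such fits for their terms, so their p-values rest mostly on the spread shared across genes. Passing them does not measure stability, here or for the members below.

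Abcb1b, the other Mdr1 gene, was at 139, 41.6 and 101 CPM in Mdr1+ libraries against 75.9, 25.1 and 66.2 CPM in Mdr1- libraries. Replicate 2 was low in both groups, so that the groups overlapped although the Mdr1+ library was the higher one in each pair, by ratios of 1.83, 1.66 and 1.53. The log2 fold change of 0.75 ± 0.48 did not pass (edgeR, adjusted p = 0.624; exact permutation p = 0.3), and with the block it was 0.74 ± 0.12 and passed (adjusted p = 0.00457). The call with the block was lost without replicate 1 (log2 fold change 0.61, adjusted p = 0.0613). For both Mdr1 genes the replicates stood in the same order in the 2 groups, as they did for 8 of the 27 tested members and for 37.6% of all tested genes.

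Abcb1a made up 56.0%, 76.0% and 63.9% of the Abcb1a and Abcb1b counts in Mdr1+ libraries, against 49.0%, 62.6% and 52.6% in Mdr1- libraries. The share was higher in the Mdr1+ library of every pair, by 6.98, 13.4 and 11.3 percentage points, but the groups overlapped. The mean difference of 10.6 percentage points did not pass a two-sided exact permutation test (p = 0.2), and an exact sign-flip test over the pairs gave p = 0.25, the smallest that 3 pairs allow. Together the Mdr1 genes took 12.8%, 6.98% and 10.9% of all ABC counts in Mdr1+ libraries, against 6.57%, 3.13% and 6.08% in Mdr1- libraries. The paralogs have stretches in common, where a read may fit both genes. Of all 50-base stretches of Abcb1a transcripts in the GENCODE vM21 annotation, 16.3% also occur in Abcb1b, and 11.1% of those of Abcb1b occur in Abcb1a. In the libraries that list unassigned reads, those that did not map to 1 place form a class of their own, outside the counts of either gene. How many reads this took from each gene depends on read length, which is not known here.

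**Figure D2:**
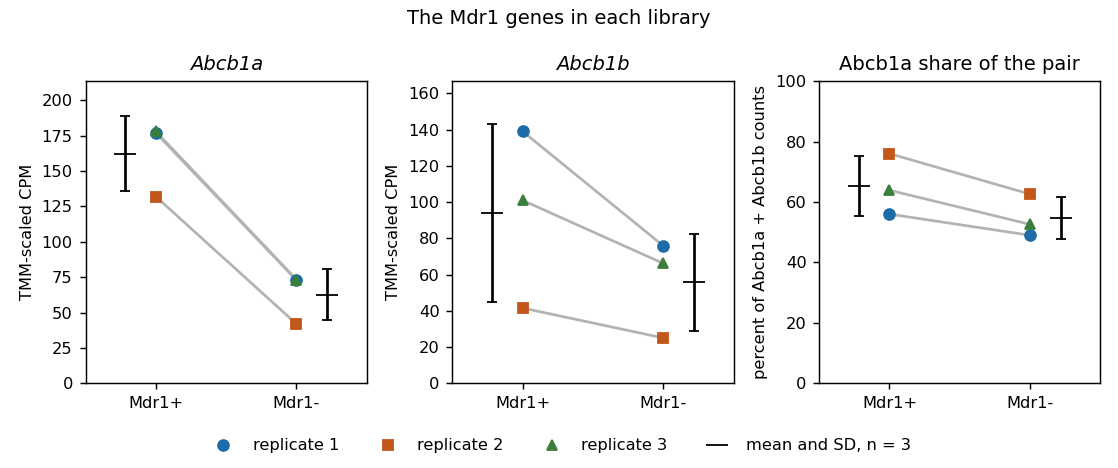
TMM-scaled CPM of Abcb1a and Abcb1b and the percentage of their summed counts that came from Abcb1a (y axes, linear from 0) in Mdr1+ and Mdr1- libraries; each symbol is 1 library, a grey line joins the pair that shares a replicate number, and the black bars give mean and SD (n = 3). All lines run downward from Mdr1+ to Mdr1-, and only Abcb1a shows no overlap between the groups (132 CPM or more against 73.4 CPM or less).

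The promoters of the Mdr1 genes are shown because both transcripts were higher in the Mdr1+ library of every pair. The sequences, 250 bases before to 50 bases after the gene start, are those of RefSeq on GRCm38.p6, the plus strand of chromosome 5, and belong to the reference strain and not to FVB/N. They lie at chr5:8566841-8567140 for Abcb1a and chr5:8797897-8798196 for Abcb1b. Capitals mark matches on either strand to CCAAT (its reverse is ATTGG) and to the GC box GGGCGG.
Abcb1a: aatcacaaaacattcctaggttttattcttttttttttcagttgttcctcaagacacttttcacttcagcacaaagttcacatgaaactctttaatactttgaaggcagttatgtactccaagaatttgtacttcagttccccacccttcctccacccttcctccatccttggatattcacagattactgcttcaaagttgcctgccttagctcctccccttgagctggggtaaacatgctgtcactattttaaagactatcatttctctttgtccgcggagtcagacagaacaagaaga
Abcb1b: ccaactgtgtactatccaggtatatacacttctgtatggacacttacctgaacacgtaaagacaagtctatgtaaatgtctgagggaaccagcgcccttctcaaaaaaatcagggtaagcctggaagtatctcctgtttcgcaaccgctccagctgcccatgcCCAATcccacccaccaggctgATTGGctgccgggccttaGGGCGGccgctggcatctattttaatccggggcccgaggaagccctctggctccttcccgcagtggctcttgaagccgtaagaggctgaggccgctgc
The Abcb1b window held 2 CCAAT matches and 1 GC box, which do not overlap each other, and the Abcb1a window held neither. The E-box CACGTG and the nuclear receptor site AGGTCA had no match in either window. Over 32851 mouse promoter windows of the same length 37.4% held CCAAT, 35.7% GGGCGG, 7.15% CACGTG and 16.3% AGGTCA. Promoters were at hand for 38 of the 50 members, of which 15 held CCAAT, 18 GGGCGG, 6 CACGTG and 5 AGGTCA in any of their windows. These counts are per gene and the shares above are per window, so they are not directly comparable. A match describes the letters and not a bound site.

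The other B genes include transporters of mitochondria and lysosomes. Abcb8, a transporter of the mitochondrial inner membrane, was at 12.6, 18.3 and 8.02 CPM in Mdr1+ libraries against 23.0, 34.2 and 27.3 CPM in Mdr1- libraries. All Mdr1+ libraries were below all Mdr1- libraries, with ratios within pairs of 0.551, 0.534 and 0.301. Its log2 fold change of -1.06 ± 0.32 did not pass without the block (edgeR, adjusted p = 0.182) and passed with it (-1.09 ± 0.22, adjusted p = 0.0144), also without each replicate number in turn. The library with the lowest value, Mdr1+ of replicate 3, rested on 17 reads of Abcb8.

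Abcb10, a mitochondrial inner membrane protein needed for heme synthesis in red cell precursors, had the same direction, with 9.64, 12.2 and 16.0 CPM in Mdr1+ libraries against 17.9, 16.7 and 21.1 CPM in Mdr1- libraries. The groups did not overlap, but the log2 fold change of -0.58 ± 0.28 passed in neither fit (edgeR, adjusted p = 0.472, and 0.132 with the block). Abcb6, which has been placed in the outer mitochondrial membrane and in other organelles and is linked to porphyrin transport, had 4.82, 9.02 and 5.66 CPM in Mdr1+ libraries against 8.93, 10.9 and 7.47 CPM in Mdr1- libraries, with overlap between groups (log2 fold change -0.45 ± 0.37). Its value is uncertain, since 50% of the 50-base stretches of its transcripts in GENCODE vM21 also occur in another gene, and Gm29253 shares the most. Whether the annotation used for counting held that gene is not known. Among 15 tested genes of heme synthesis and breakdown, iron-sulfur cluster synthesis and iron import, 0 passed with or without the block. Their median log2 fold change was -0.12.

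Abcb9, a peptide transporter of lysosomes, had 44.2, 34.6 and 51.9 CPM in Mdr1+ libraries against 32.5, 28.4 and 29.7 CPM in Mdr1- libraries. The groups did not overlap, and the log2 fold change of 0.51 ± 0.21 passed in neither fit (edgeR, adjusted p = 0.375, and 0.081 with the block). Its relatives in the endoplasmic reticulum, Tap1 and Tap2, carry ABC domains under other names and feed peptides to MHC class I. Tap1 was at 359, 508 and 445 CPM in Mdr1+ libraries against 443, 489 and 374 CPM in Mdr1- libraries. Tap2 was at 235, 426 and 324 CPM in Mdr1+ libraries against 262, 372 and 257 CPM in Mdr1- libraries. Both overlapped between groups and passed in neither fit, and Cftr, the chloride channel of the C branch, had 1 read in all. Of 7 tested genes that work with them in peptide loading, 0 passed without the block. With it Tapbpl, a peptide editor related to tapasin, rose (log2 fold change 0.63 ± 0.13, adjusted p = 0.0162), and the chaperone genes Canx (-0.32 ± 0.08) and Pdia3 (-0.30 ± 0.08) fell.

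The C genes export anionic compounds and conjugates of glutathione, glucuronic acid or sulfate. Abcc3, an exporter of glucuronides and conjugated bile acids in liver and gut, was at 3.32, 4.02 and 10.8 CPM in Mdr1+ libraries against 14.3, 16.3 and 20.9 CPM in Mdr1- libraries. The groups did not overlap, and replicate 3 was the highest of both. The ratios within pairs were 0.237, 0.247 and 0.528, and the log2 fold change was -1.66 ± 0.46, the lowest of the 27 members. It did not pass in edgeR without the block (adjusted p = 0.139) and passed with it (-1.72 ± 0.31, adjusted p = 0.0089), also without each replicate number in turn. It also passed in DESeq2 (adjusted p = 0.00908), in edgeR without a filter on low counts (adjusted p = 0.0431) and without the Mdr1+ library of replicate 3 (-2.21, adjusted p = 0.0291). That was the 1 of 9 fits without the block, each lacking a library or a replicate number, in which it passed. In the other 8 the log2 fold change was as small as -1.4 and the adjusted p as high as 0.547. These levels are low: the 3 Mdr1+ libraries held 20, 86 and 23 reads of Abcc3.

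The summed level of 6 dendritic cell markers was 22.9 to 45.3 CPM in Mdr1+ and 57.5 to 77.8 CPM in Mdr1- libraries, of which Cd74 made up most, and Cd74 and H2-Aa, 2 of 3 tested, fell with the block. Of the other dendritic cell markers, Flt3 and Xcr1 were at 0 to 0.831 CPM in Mdr1+ and 0 to 0.679 CPM in Mdr1- libraries. Zbtb46 was at 1.87 to 5.66 CPM in Mdr1+ and 3.29 to 5.02 CPM in Mdr1- libraries and passed in neither fit. Itgax, too low to test, was at 0 to 0.498 CPM in Mdr1+ and 0.849 to 2.51 CPM in Mdr1- libraries, without overlap. The 6 myeloid markers summed to 0.467 to 6.6 CPM in Mdr1+ and 1.64 to 83.2 CPM in Mdr1- libraries, with the highest value in replicate 3, and Lyz2, the 1 tested, fell with the block. Itgam (0 to 0.498 CPM in Mdr1+ and 0.865 to 2.21 CPM in Mdr1- libraries) was too low to test and did not overlap. The same held for Csf1r (0 CPM in Mdr1+ and 0.223 to 5.09 CPM in Mdr1- libraries), while Cd14, Emr1 and Il1b overlapped. The part of these markers in the values of Abcc3 and the other members was not tested.

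The other C genes differed less. Abcc1, an exporter of leukotriene C4 and glutathione conjugates, was at 130, 126 and 151 CPM in Mdr1+ libraries against 161, 145 and 170 CPM in Mdr1- libraries. Each Mdr1+ library was the lower of its pair, and the log2 fold change of -0.23 ± 0.16 passed in neither fit (edgeR, adjusted p = 0.651, and 0.132 with the block). Abcc4, which exports cyclic nucleotides and prostaglandins, was lower in each pair too, at 91.2, 102 and 124 CPM in Mdr1+ libraries against 122, 121 and 138 CPM in Mdr1- libraries (-0.27 ± 0.17, adjusted p = 0.623, and 0.108 with the block). Abcc5, an exporter of cyclic nucleotides and other organic anions, had values of 65.7 to 78.8 CPM in Mdr1+ and 59.1 to 67.4 CPM in Mdr1- libraries, and Abcc10 had 9.43 to 28.8 CPM in Mdr1+ and 16.3 to 26.1 CPM in Mdr1- libraries, with overlap for both. With the block and without replicate 3, Abcc1 (-0.28, adjusted p = 0.0339), Abcc4 (-0.36, adjusted p = 0.0203) and Abcb10 (-0.67, adjusted p = 0.0234) passed as lower and Abcg3 (0.96, adjusted p = 0.0108) as higher. None of the 4 passed with the block on all libraries or without replicate 1 or 2. The blocked fit without replicate 3 called 1131 of 11177 genes higher and 1347 lower.

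Genes of glutathione metabolism and leukotriene synthesis make or break down substrates of C transporters. Of 16 listed, 10 could be tested, and Alox5, Alox5ap and Ltc4s of leukotriene synthesis were too low to test. Of the 10 tested genes 0 passed without the block and 2 fell with it. Ggt1, the ectoenzyme that cleaves exported glutathione and its conjugates, was at 16.9, 11.5 and 24.5 CPM in Mdr1+ libraries against 31.7, 42.1 and 46.2 CPM in Mdr1- libraries (log2 fold change -1.24 ± 0.30, edgeR adjusted p = 0.0928, and 0.00832 with the block). Gsr, which encodes glutathione reductase, was at 53.3, 52.8 and 52.3 CPM in Mdr1+ libraries against 75.1, 81.4 and 93.9 CPM in Mdr1- libraries (-0.66 ± 0.17, adjusted p = 0.102, and 0.011 with the block). The groups did not overlap for either gene, and the list's median was -0.18.

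**Figure D3:**
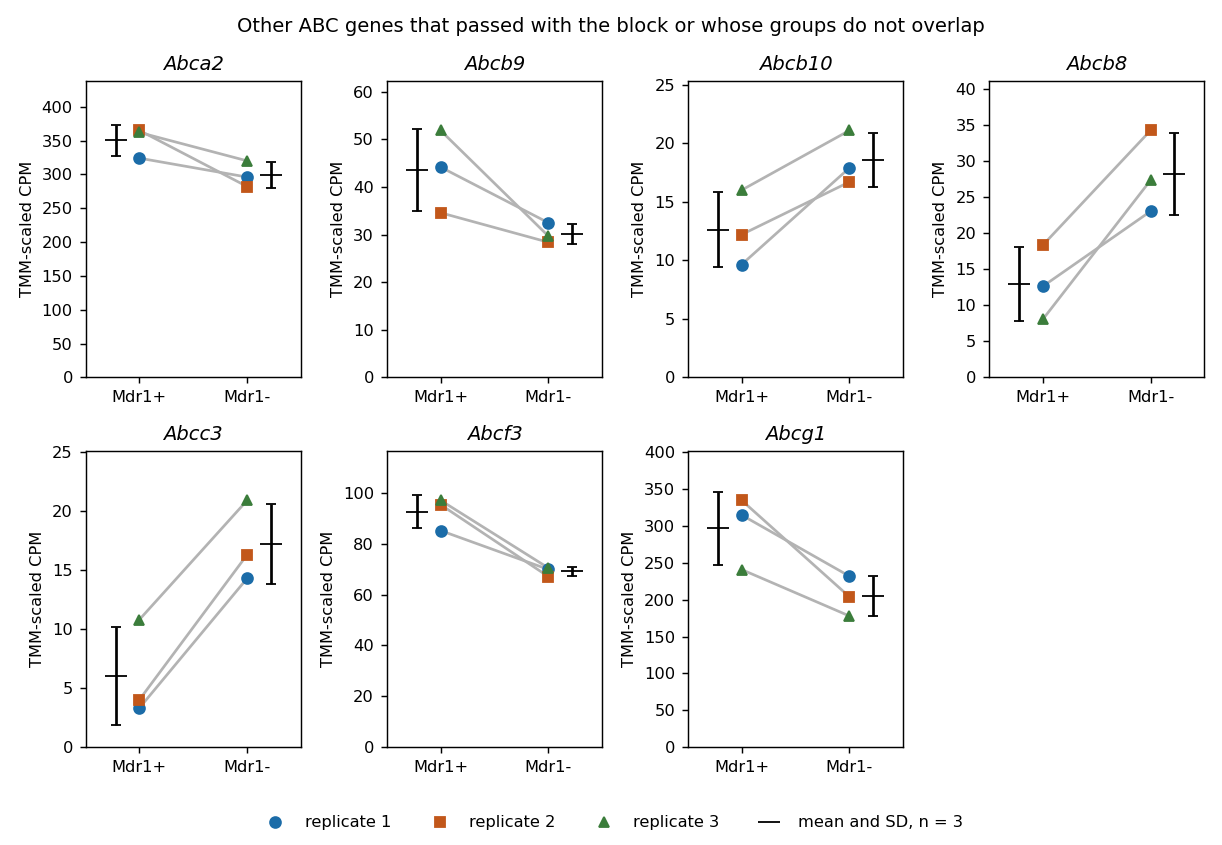
TMM-scaled CPM (y axes, linear from 0) in Mdr1+ and Mdr1- libraries of 7 ABC genes other than the Mdr1 genes that passed with the replicate block or whose groups do not overlap; each symbol is 1 library, a grey line joins the pair that shares a replicate number, and the black bars give mean and SD (n = 3). Abcb8, Abcb10 and Abcc3 are lower and Abca2, Abcb9, Abcf3 and Abcg1 higher in each Mdr1+ library than in all Mdr1- libraries.

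The sterol exporters Abcg1 and Abca1 are targets of the oxysterol-sensing LXR receptors and pass cholesterol to lipoproteins. Abcg1 was at 315, 335 and 241 CPM in Mdr1+ libraries against 232, 204 and 178 CPM in Mdr1- libraries. The groups did not overlap, with ratios within pairs of 1.36, 1.64 and 1.36, and the log2 fold change was 0.54 ± 0.19. It did not pass without the block (edgeR, adjusted p = 0.274) and passed with it (0.54 ± 0.09, adjusted p = 0.00666), also without each replicate number in turn. Abca1 was at 51.5, 82.3 and 55.2 CPM in Mdr1+ libraries against 55.0, 64.8 and 43.0 CPM in Mdr1- libraries. Its groups overlapped, 1 pair of 3 went the other way, and the log2 fold change of 0.22 ± 0.24 passed in neither fit (edgeR, adjusted p = 0.781, and 0.396 with the block).

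Of 13 tested genes of sterol sensing and cholesterol handling, 0 passed without the block, and with it 2 rose and 2 fell. Those that rose were Nr1h2, an LXR gene (0.40 ± 0.10, edgeR adjusted p = 0.0329), and Mylip, an LXR target that removes the LDL receptor (0.86 ± 0.13, adjusted p = 0.00373). Those that fell were Srebf2, the regulator of cholesterol synthesis (-0.44 ± 0.10, adjusted p = 0.0195), and Scd2, a fatty acid desaturase gene (-0.59 ± 0.12, adjusted p = 0.0121). Nr1h2 and Mylip overlapped between groups, while Srebf2 and Scd2 did not. The list's median without the block was 0.09. No other gene of the list passed in either fit, among them Rxrb (0.36 without the block), Rxra (0.30), Lpcat3 (-0.08) and Srebf1 (-0.13). The part of LXR in these values was not tested. Abcg3, a rodent relative of Abcg2, was at 12.3, 13.0 and 2.83 CPM in Mdr1+ libraries against 7.14, 5.79 and 5.77 CPM in Mdr1- libraries, and the low Mdr1+ library of replicate 3 rested on 6 reads. Its log2 fold change was 0.66 ± 0.48 (edgeR, adjusted p = 0.668), 0.56 with the block (adjusted p = 0.413), and with the block 0.22 without replicate 1 and 0.05 without replicate 2. Abcg2, an exporter of drugs and dyes, was low, at 1.41 to 3.99 CPM in Mdr1+ and 1.53 to 2.79 CPM in Mdr1- libraries.

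The A genes are large transporters of lipids. Abca2, an endosomal and lysosomal protein linked to sterol and sphingolipid handling, was at 324, 365 and 362 CPM in Mdr1+ libraries against 296, 282 and 320 CPM in Mdr1- libraries. The groups did not overlap, but the difference was small (log2 fold change 0.23 ± 0.16) and passed in neither fit (edgeR, adjusted p = 0.648, and 0.119 with the block). Abca7, a close relative of Abca1 that acts in phagocytosis and lipid export, was at 276, 342 and 441 CPM in Mdr1+ libraries against 270, 302 and 333 CPM in Mdr1- libraries, higher in each pair and with overlap (0.23 ± 0.20). Abca3, the surfactant lipid transporter of lung, was at 81.4 to 139 CPM in Mdr1+ and 97.0 to 118 CPM in Mdr1- libraries. Abca5 had 0 to 2.82 CPM in Mdr1+ and 1.73 to 5.6 CPM in Mdr1- libraries and at most 45 reads in a library. Its log2 fold change of -1.25 ± 0.76 passed in neither fit (edgeR, adjusted p = 0.599, and 0.383 with the block), and it was -0.48 with the block and without replicate 3.

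The D genes encode peroxisomal transporters of fatty acyl chains. Abcd3, a transporter of branched and bile acid precursor chains, was at 11.0, 12.1 and 7.55 CPM in Mdr1+ libraries against 13.2, 12.3 and 10.7 CPM in Mdr1- libraries, with overlap. Abcd4, which acts in lysosomes in vitamin B12 release, was at 11.1, 16.2 and 8.02 CPM in Mdr1+ libraries against 9.49, 14.7 and 8.49 CPM in Mdr1- libraries. Neither passed in either fit, and Abcd2 had no read in any library. Of 11 tested genes of peroxisome import and beta-oxidation, 0 passed in either fit, with a median log2 fold change of 0.07.

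The E and F proteins have ATP-binding domains but no membrane part. Abce1, which splits ribosomes into subunits after termination, was at 201, 127 and 108 CPM in Mdr1+ libraries against 179, 110 and 156 CPM in Mdr1- libraries, with overlap and pairs that went both ways (log2 fold change -0.02 ± 0.27). Abcf3, whose relative in yeast, Gcn20, acts with the factors that sense uncharged tRNA, was at 85.2, 95.4 and 97.1 CPM in Mdr1+ libraries against 69.9, 67.1 and 70.5 CPM in Mdr1- libraries. Its groups did not overlap, and its Mdr1- libraries lay close together. The log2 fold change was 0.42 ± 0.16, which did not pass without the block (edgeR, adjusted p = 0.304) and passed with it (0.42 ± 0.11, adjusted p = 0.0413). With the block the call was lost without replicate 1 (adjusted p = 0.144) and without replicate 2 (adjusted p = 0.311).

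Abcf1, a partner of the initiation factor eIF2, was at 152, 178 and 121 CPM in Mdr1+ libraries against 152, 198 and 169 CPM in Mdr1- libraries (log2 fold change -0.20 ± 0.19). Abcf2 was at 96.7, 92.7 and 116 CPM in Mdr1+ libraries against 97.8, 103 and 102 CPM in Mdr1- libraries (0.01 ± 0.16). Neither passed in either fit, and both overlapped between groups. Of 12 tested genes of ribosome recycling, termination and initiation, 0 passed without the block and 1 rose with it, the initiation factor gene Eif1 (0.62 ± 0.14, edgeR adjusted p = 0.0183).

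Several members known from liver and gut had few or no reads. The bile salt export pump gene Abcb11, the conjugate exporter gene Abcc2 and the sterol exporter gene Abcg8 had no read in any library, which allows up to 0.14 CPM in the deepest library and 1.41 CPM in the shallowest. Abcg5, the partner of Abcg8, had 1 read in all, and Abcb4, the phosphatidylcholine transporter that neighbours the Mdr1 genes, had at most 8 reads in a library. No untested member had more than 8 reads in a library. Abcc8 and Abcc9, subunits of ATP-sensitive potassium channels, had 1 and 0 reads, and their channel partners Kcnj8 and Kcnj11 were too low to test. Of 15 genes of xenobiotic and bile acid sensing 7 could be tested and 0 passed without the block. With it Nr3c1, the glucocorticoid receptor gene, rose (log2 fold change 0.53 ± 0.09, edgeR adjusted p = 0.00663). Nr3c1 overlapped between groups, and the list's median without the block was 0.19. Vdr, of the same list, was low, at 0.665, 0.935 and 0 CPM in Mdr1+ libraries against 4.13, 1.56 and 3.23 CPM in Mdr1- libraries. Its groups did not overlap, and its log2 fold change of -2.05 ± 0.72 passed in neither fit (edgeR, adjusted p = 0.279, and 0.145 with the block). The bile acid receptor gene Nr1h4 had no read in any library. Gpbar1, also of this list, had reads but was too low to test.

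Set against coding length, so that genes can be compared, Abcg1 was the most abundant member in both groups, at 149 ± 24.7 CPM per kilobase of coding sequence in Mdr1+ and 102 ± 13.4 in Mdr1- cells (SD, n = 3 each). Abce1 followed with 80.9 ± 27.1 in Mdr1+ and 82.4 ± 19.6 in Mdr1- cells, then Abcf1 with 59.8 ± 11.4 in Mdr1+ and 69.0 ± 9.29 in Mdr1- cells. Abcb1a stood 9th of 27 in Mdr1+ cells, at 42.4 ± 6.88 CPM per kilobase, and 13th in Mdr1- cells, at 16.4 ± 4.69. Abcb1b stood 12th at 24.5 ± 12.8 in Mdr1+ cells and 14th at 14.6 ± 7.05 in Mdr1- cells. The order between neighbours was mostly within the spread of libraries, whose ranges overlapped for 23 of 26 neighbouring pairs in Mdr1+ cells and 21 of 26 in Mdr1- cells. In Mdr1+ cells Abcg1 and Abce1, Abcb1a and Abcc1, and Abcc3 and Abca5 did not overlap. Per kilobase of total exon length Abcg1 did not lead. There it stood below Abca7 and Abca2 in Mdr1+ cells, and below Abca7, Abcf1, Abcf2 and Abca2 in Mdr1- cells, so the order of the first genes depends on which length is used. In raw counts 6 genes (Abca7, Abca2, Abcg1, Abcf1, Abcc1 and Abce1) held 55.4% to 59.2% of all ABC counts in each library.

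**Figure D4:**
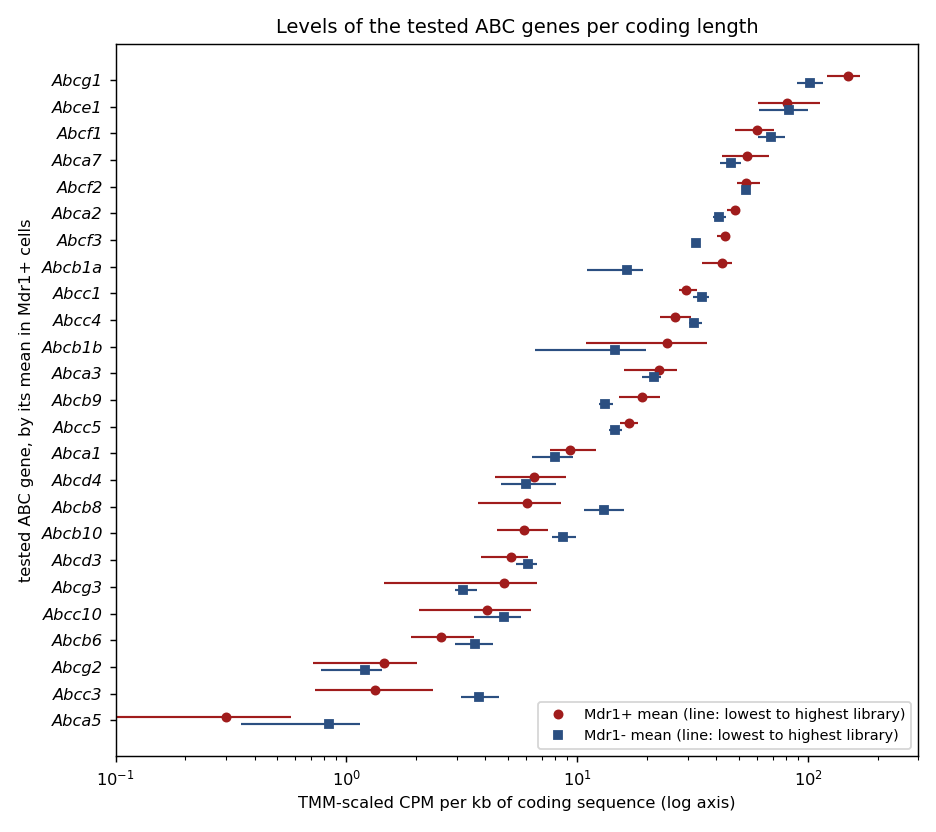
TMM-scaled CPM per kilobase of coding sequence (x axis, log scale) of 25 of the 27 tested ABC genes (y axis, ordered by the mean in Mdr1+ cells); symbols are the mean of 3 libraries and lines run from the lowest to the highest library, except that the line of Abca5 in Mdr1+ cells, whose lowest library is at 0, starts at the axis limit. Abcg1 leads in both groups (149 in Mdr1+ and 102 in Mdr1-), and the lines of the groups do not overlap for Abcb1a, Abcb8 and Abcc3, among others.

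The other marker lists gave these values, and their part in the differences between ABC genes was not tested. Of 5 epithelial markers 3 could be tested and Cdh1 rose in both fits (11.3 to 13.6 CPM in Mdr1+ and 1.7 to 4.35 CPM in Mdr1- libraries; edgeR adjusted p = 0.0382), while Krt8 and Krt19 had no read. The other tested ones passed in neither fit, with log2 fold changes of 1.25 for Epcam and -1.27 for Krt18. The 5 summed to 13.6 to 22.2 CPM in Mdr1+ and 7.48 to 9.51 CPM in Mdr1- libraries. Of 6 stromal and endothelial markers 3 could be tested and Acta2 fell in both fits (0 to 0.28 CPM in Mdr1+ and 4.08 to 6.4 CPM in Mdr1- libraries; edgeR adjusted p = 0.018). Cdh5 was at 0.327 to 0.472 CPM in Mdr1+ and 1.79 to 2.42 CPM in Mdr1- libraries without overlap, and passed in neither fit (-2.51). The 6 summed to 117 to 191 CPM in Mdr1+ and 126 to 137 CPM in Mdr1- libraries, nearly all of it Pecam1 (115 to 190 CPM in Mdr1+ and 115 to 128 CPM in Mdr1- libraries), a gene that T cells can also express, which passed in neither fit (0.19). Cd22, 1 of 3 tested among 5 B cell markers, rose with the block, and Ms4a1 was at 0 CPM in Mdr1+ and 0 to 0.112 CPM in Mdr1- libraries. The 5 B cell markers summed to 11.0 to 22.8 CPM in Mdr1+ and 6.36 to 10.8 CPM in Mdr1- libraries. CD8 T cell markers summed to 0 to 1.5 CPM in Mdr1+ and 1.34 to 2.21 CPM in Mdr1- libraries. Of 3 NK cell markers 1 was tested, Klrb1c, which passed in neither fit, and the 3 summed to 15.1 to 20.7 CPM in Mdr1+ and 8.13 to 14.6 CPM in Mdr1- libraries. The 4 erythroid markers summed to 0 to 0.332 CPM in Mdr1+ and 0 to 0.17 CPM in Mdr1- libraries.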

How the data were processed

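Per the labels' protocols, total RNA from spin columns, treated with DNase, went into stranded libraries. The authors deposited 1 table of raw counts per gene symbol for 6 libraries. The submitters' processing notes name TopHat, HTSeq, DESeq2 and mm9. Versions, annotation, read length and whether counting used strand: not given in the sources used here. HTSeq's classes of unassigned reads, present for 4 libraries, were left out of all sums and fits. Entries for reads that did not map to 1 place were 67.0% to 73.2% of all entries there.

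The columns of replicate 3 follow the gene names sorted without regard to case, which moves 81.3% of the names to another line. Re-ordering raised their Spearman correlations across genes with the other 4 libraries to 0.926 to 0.962, against 0.424 to 0.46 as deposited. This step was chosen with the values known, and sensitivity to it is given below. The members and all gene lists were chosen with earlier results of these data known.

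Within each group the replicates varied beyond sampling noise (chi-square per degree of freedom 14.5 to 53.7), so each counted once. Tests used edgeR 4.0.16 in R 4.3.3 with TMM scaling, filterByExpr by group and quasi-likelihood F tests (robust fits, no covariate beside the group). P-values were adjusted by Benjamini and Hochberg's method across the 10897 genes tested, with 0.05 as the threshold. Standard errors are the fold change over the square root of F. Fold changes are Mdr1+ over Mdr1-. Ratios within pairs use counts plus 0.5.

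Deviations of log2 CPM from the group mean (prior count 2) correlated across genes at 0.41, 0.57 and 0.21 between libraries of the same replicate number. Each is above 0.1, so replicate numbers were read as pairs, a reading that comes from the data and not from the labels, and the blocked value stands where it changes a call. Members given by library were those past the threshold in either fit, those whose groups do not overlap, the most abundant per coding length of each subfamily, and named pairs. Genes of the other lists are named where they passed in either fit. Coding length is the longest coding sequence in GENCODE vM21, used in place of the planned protein lengths, which were not used here. DESeq2 1.42.0, other scaling, no filter and fits without single libraries or replicates were tried as alternatives. The fitting script was run on simulated counts that held no differences between replicate numbers, so the run cannot check the block on paired libraries. Values of some genes are not reported here, and counts over all members include them.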

Additional observations from a re-analysis of the deposited data

How the results depend on the processing

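Abcb1a kept its direction in every alternative with replicate 3 re-ordered. On the rows as deposited Abcb1a carries the replicate 3 counts of another gene, so that fit is no check of its direction. Its log2 fold change was 0.83 (edgeR, adjusted p = 1) with replicate 3 on the rows as deposited, where 0 genes of the table passed, and 1.15 to 1.5 without single libraries or replicates, passing in 4 of 9 such fits (adjusted p 0.0274 to 0.253 in edgeR). With the replicate number as a block Abcb1b passed at 0.74, and at 0.75 and 0.79 without replicates 2 and 3. Without the block it was 0.29 to 1.12 over the 9 fits that left out a library or replicate and passed in 0 of them, lowest without the Mdr1+ library of replicate 1 and 0.39 without the Mdr1- library of replicate 2. Members higher numbered 4 with the block, 0 on the rows as deposited and 0 to 1 in the fits without single libraries or replicates. With the block and without replicates 1, 2 and 3 in turn, fits added after seeing the data, they numbered 2, 3 and 5. Members lower numbered 3 with the block, 1 with DESeq2, 1 without a filter, 0 to 1 in the leave-out fits, and 2, 3 and 6 with the block and without replicates 1, 2 and 3. The fold change of Abcf3 was -0.01 on the rows as deposited. Over all genes the block called 633 higher and 716 lower, against 30 and 212 without it, and DESeq2 called 103 and 381. Without a filter on low counts the numbers were 52 and 287, and in the leave-out fits without the block 0 to 15 and 0 to 196. The blocked fits without replicates 1, 2 and 3 called 436, 259 and 1131 genes higher and 694, 392 and 1347 lower. They tested 11081, 10707 and 11177 genes. The cause of these changes was not tested. The difference in Abcb1a share, 10.6 percentage points, was 9.14 to 12.3 without single replicates. Scaling by relative log expression in place of TMM changed no member's call. Depth limits the weak members most: the shallowest library has 2220691 counts.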

Other observations

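The row order of replicate 3 decides which ABC genes appear to be expressed. Of 12 members with no read in replicates 1 and 2 of either group, 10 had reads in replicate 3 on the rows as deposited and 0 after re-ordering. Abcd2 had 754 counts in the Mdr1+ library and 2261 in the Mdr1- library of replicate 3 as deposited, Abca9 had 989 and 2314, and Abcg1, among the most abundant members in the other 4 libraries, had 0 and 0.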
